A study of Saccharomyces cerevisiae with 4 samples.

Results

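The 33 genes described here encode aminoacyl-tRNA synthetases of the budding yeast Saccharomyces cerevisiae, 20 for enzymes of the cytosol and 13 for enzymes of the mitochondrion. They were chosen by systematic open reading frame name from a table of 6211 open reading frames. The choice did not use their measured values, though earlier results of these data were known. All 33 had a value on each of the 4 arrays. The study compared a strain labelled GCN2c with a wild-type (WT) strain on spotted 2-colour arrays, each holding GCN2c RNA in one channel and WT RNA in the other, and its design text describes 4 biological replicates. Both strains grew at 28 °C in the rich medium YPD and were harvested in log phase, at an absorbance of 0.6, and the labels name no drug, starvation or DNA damage for these cultures. The sample labels call GCN2c a mutant and the design text calls it overexpressing, and neither gives the allele, a plasmid or the strain background.

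An aminoacyl-tRNA synthetase joins an amino acid to the tRNAs that read its codons, and the ribosome can use a tRNA only once it is charged in this way. Gcn2, the kinase after which the strain is named, binds uncharged tRNA through a domain related to histidyl-tRNA synthetase, phosphorylates the initiation factor eIF2 and so raises translation of GCN4, the activator of amino acid synthesis genes. Yeast charges its mitochondrial tRNAs with separate nuclear-encoded enzymes for most amino acids, and for a few with a second form of the cytosolic enzyme made from the same gene. Synthetases fall into class I and class II, which have unrelated catalytic folds.

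Values are log2 ratios read as GCN2c over WT. That direction and the log base are likely but nowhere stated, and if the ratios ran the other way, higher and lower would trade places throughout. GCN2c RNA carried the dye Cy5 on replicates 1 and 3 and Cy3 on replicates 2 and 4. Replicates 2 and 4 held nearly the same values: their differences had an SD of 0.0638 over 6136 genes, against 0.852 between replicates 1 and 3, and the synthetase genes differed between them by at most 0.005. They were averaged and counted as 1 sample, which leaves n = 3. Where 3 values of a gene are given below, they are those of replicate 1, of replicate 3 and of the mean of replicates 2 and 4, in that order, and errors are SDs with n = 3.

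Replicates 2 and 4 also stood apart in 3 of 4 alpha-specific mating genes. MF(ALPHA)1, the alpha-factor gene, read -0.92, -1.42 and 4.93, and MF(ALPHA)2, a second alpha-factor gene, read -0.77, -0.10 and 1.69. STE3, the a-factor receptor gene, read 0.17 on replicate 1 and 3.76 on replicates 2 and 4 and had no value on replicate 3. SAG1, the alpha-agglutinin gene, was not raised there, at 0.025, -0.84 and 0.069. The medians of the 4 genes were -0.37, -0.84 (over the 3 with a value) and 2.72, and those of 5 a-specific genes -0.39, -0.27 and -0.42. Single a-specific genes were less even than these medians. MFA1 read -0.39, 0.17 and -1.11, and MFA2 read -1.55, -1.34 and -0.40. The difference of replicates 2 and 4 from the others was not limited to mating genes. LEU2, a leucine synthesis gene, read 6.09 on replicates 2 and 4 and had no value on replicates 1 and 3. The part of these differences in the synthetase values was not tested, and results are given with and without that hybridisation where it matters. GCN2 itself read -0.39, 0.10 and -0.68 (limma adjusted p = 0.453), and GCN4 read 0.84, 0.57 and 0.37 (adjusted p = 0.180). GCN2 RNA was thus not called higher, though the design text calls the strain overexpressing, and the reason was not tested.

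None of the 33 synthetase genes passed an adjusted p of 0.05 in limma, against 2.06% of the 6130 genes tested (1.73% higher and 0.326% lower in GCN2c). One-class SAM, the test the design text names, called 0 of 33 as well, against 3.15% of all genes. At an unadjusted p under 0.05, 8 synthetase genes had a ratio below 0 and none above 0, where 10.7% of all genes were below 0 and 10% above 0 at that level, 20.7% in all. Those below were MES1, SES1, GLN4, GUS1, FRS1 and WRS1 for cytosolic enzymes and MSD1 and DIA4 for mitochondrial ones. Mean ratios ran from -0.96 for MES1 to 0.42 for ISM1, and 25 of 33 were below 0, where 55.9% of all genes were. Of the 33 genes, 14 were below 0 on all 3 replicates and 2 above 0 on all 3, against 28.1% and 18.5% of all genes with 3 values.

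Which synthetase genes passed depended on how the replicates were used. Without replicates 2 and 4, only replicates 1 and 3 remained, both with GCN2c in Cy5. MES1 alone then passed, where 5.89% of all genes passed and 1.33% were called lower. With a term for dye orientation MES1 and SES1 passed, against 9.84% of all genes and 4.4% called lower. In the fit with the dye term only 1 sample had GCN2c in Cy3. With the 4 arrays taken as 4 replicates, which counts the near-identical arrays separately, the 8 genes above passed, against 17.3% and 9.62%. In the other settings 0 of 33 passed. The share of all genes that passed was then 2.46% without replicate 1, 1.21% without replicate 3, 2.48% after centring each array, 1.65% after scaling, 3.19% with only genes on all 4 arrays, 2.4% without values beyond 16 in size and 0.0% with replicates 2 and 4 turned in sign.

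**Figure D1:**
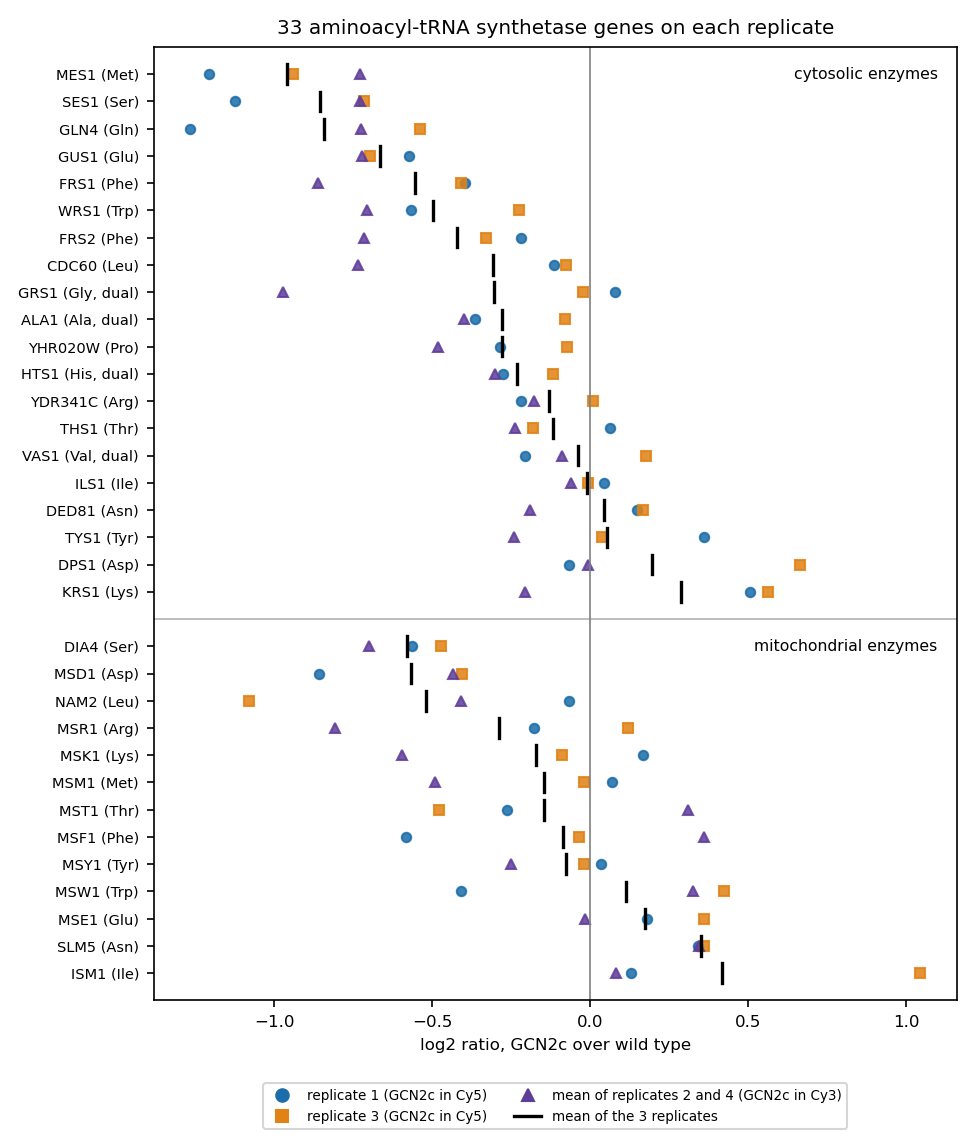
Log2 ratio of GCN2c over WT (x axis) for the 20 cytosolic and the 13 mitochondrial synthetase genes, ordered by mean within each set. Points are replicate 1, replicate 3 and the mean of replicates 2 and 4, and black bars are the means of these 3 values, which run from -0.96 for MES1 to 0.42 for ISM1.

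The median cytosolic gene read -0.22, -0.08 and -0.44, and these medians averaged -0.25 ± 0.18. For the mitochondrial genes the medians were -0.07, -0.02 and -0.25, averaging -0.11 ± 0.12. All genes tested had medians of -0.03, -0.05 and -0.09, averaging -0.06 ± 0.03, so both sets lay below all genes on replicates 2 and 4 while the mitochondrial median lay above that of all genes on replicate 3. Without replicates 2 and 4 the averages were -0.15 for the cytosolic set, -0.04 for the mitochondrial set and -0.04 for all genes. The difference of the cytosolic minus the mitochondrial median was -0.15, -0.06 and -0.19, averaging -0.13 ± 0.07. It had one sign on each replicate, and with 3 replicates a two-sided exact sign-flip test cannot go below p = 0.25. All 20 cytosolic genes were below 0 on replicates 2 and 4, while 14 of 20 were on replicate 1 and 14 of 20 on replicate 3. Of the 13 mitochondrial genes, 7, 8 and 8 were below 0. Among the 6130 genes tested, some without a value on every replicate, 3223, 3255 and 3415 were below 0. In the ranking of all genes by mean ratio, 6 synthetase genes lay in the lowest 10% and 0 in the highest 10%.

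**Figure D2:**
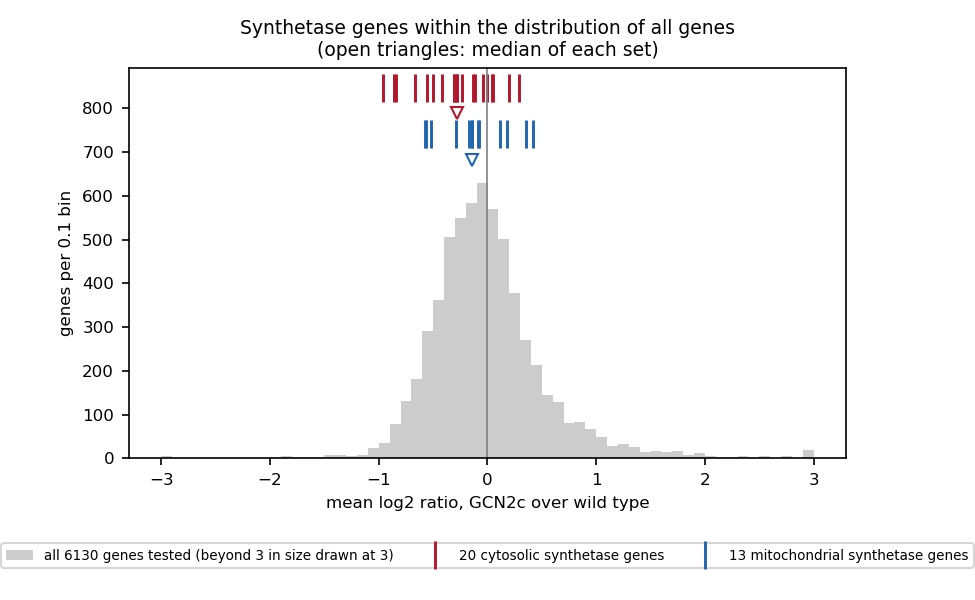
Histogram of the mean log2 ratio of GCN2c over WT (x axis) for all 6130 genes tested (grey, genes per bin, values beyond 3 in size drawn at 3), with a tick for each synthetase gene above it. Open triangles mark the medians of the mean ratios, -0.28 for the 20 cytosolic and -0.14 for the 13 mitochondrial genes.

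Among the cytosolic genes, MES1, SES1 and GLN4 had the lowest mean ratios. MES1 (YGR264C), the methionyl-tRNA synthetase gene, read -1.21, -0.94 and -0.73, averaging -0.96 ± 0.24 with a 95% interval from -1.44 to -0.48 (adjusted p = 0.0841). It was below 0 on every replicate, least so on replicates 2 and 4. Without those, with GCN2c in Cy5 only (n = 2), its limma adjusted p was 0.0426. SES1 (YDR023W), for the seryl enzyme, read -1.12, -0.72 and -0.73, averaging -0.86 ± 0.23 (adjusted p = 0.105). GLN4 (YOR168W), for the glutaminyl enzyme, read -1.27, -0.54 and -0.72, averaging -0.84 ± 0.38 (adjusted p = 0.131). Like MES1, both were lowest on replicate 1.

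GUS1 (YGL245W), for the glutamyl enzyme, was the most even of the low cytosolic genes at -0.57, -0.70 and -0.72, averaging -0.66 ± 0.081 (adjusted p = 0.136). In yeast the Mes1 and Gus1 proteins form a complex with Arc1, a tRNA-binding cofactor that raises their charging activity. ARC1 read -0.39, -0.42 and -0.99, averaging -0.60 ± 0.34 (adjusted p = 0.200). The genes of this complex were thus below 0 on every replicate, MES1 farthest on replicates 1 and 3 and ARC1 farthest on replicates 2 and 4, and none passed the threshold.

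FRS1 and FRS2, for the beta and alpha subunits of the phenylalanyl enzyme, had similar profiles. FRS1 (YLR060W) read -0.40, -0.41 and -0.86, averaging -0.56 ± 0.26 (adjusted p = 0.202). FRS2 (YFL022C) read -0.22, -0.33 and -0.71, averaging -0.42 ± 0.26 (adjusted p = 0.295). Both were lowest on replicates 2 and 4, by more than replicates 1 and 3 differed. WRS1 (YOL097C), for the tryptophanyl enzyme, read -0.57, -0.22 and -0.71, averaging -0.50 ± 0.25 (adjusted p = 0.232). CDC60 (YPL160W), for the leucyl enzyme, was near 0 on replicates 1 and 3, at -0.11 and -0.08, and at -0.74 on replicates 2 and 4 (mean -0.31 ± 0.37, adjusted p = 0.466).

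The 4 genes listed here as making a form of the enzyme for each compartment, ALA1, GRS1, HTS1 and VAS1, had means between -0.30 and -0.04. GRS1 (YBR121C), for the glycyl enzyme, read 0.08, -0.02 and -0.97, averaging -0.30 ± 0.58 (adjusted p = 0.564). This was the largest SD of the 33 genes, and the GRS1 mean without replicates 2 and 4 was 0.03. ALA1 (YOR335C), for the alanyl enzyme, read -0.36, -0.08 and -0.40 (mean -0.28 ± 0.17, adjusted p = 0.435). HTS1 (YPR033C), for the histidyl enzyme to which the Gcn2 sensor domain is related, read -0.28, -0.12 and -0.30 (mean -0.23 ± 0.10, adjusted p = 0.497). Both were below 0 on every replicate without passing the threshold. VAS1 (YGR094W), for the valyl enzyme, read -0.21, 0.18 and -0.09, on both sides of 0 (adjusted p = 0.929).

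Of the other cytosolic genes with a mean below 0, the prolyl one was below 0 on every replicate. This gene, YHR020W, read -0.29, -0.07 and -0.48 (mean -0.28 ± 0.20, adjusted p = 0.446). YDR341C, for the arginyl enzyme, read -0.22, 0.01 and -0.18 (mean -0.13 ± 0.12, adjusted p = 0.724). THS1 (YIL078W), for the threonyl enzyme, read 0.06, -0.18 and -0.24 (mean -0.12 ± 0.16, adjusted p = 0.756). The arginyl and threonyl genes each had 1 replicate above 0. ILS1 (YBL076C), for the isoleucyl enzyme, had the mean nearest 0 of all 33, at 0.04, -0.01 and -0.06, with an interval from -0.44 to 0.42 (adjusted p = 0.986).

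KRS1, DPS1, TYS1 and DED81 were the cytosolic genes with a mean above 0, and none was above 0 on all 3 replicates. KRS1 (YDR037W), for the lysyl enzyme, is a known Gcn4 target and read 0.51, 0.56 and -0.21, averaging 0.29 ± 0.43 with an interval from -0.29 to 0.86 (adjusted p = 0.519). Its sign differed between the dye orientations. DPS1 (YLL018C), for the aspartyl enzyme, read -0.07, 0.67 and -0.01, so its mean of 0.20 ± 0.41 came from replicate 3 (adjusted p = 0.663). TYS1 (YGR185C), for the tyrosyl enzyme, read 0.36, 0.04 and -0.24 (mean 0.05 ± 0.30, adjusted p = 0.913). DED81 (YHR019C), for the asparaginyl enzyme, read 0.15, 0.17 and -0.19 (mean 0.04 ± 0.20, adjusted p = 0.922). TYS1 and DED81, like KRS1, were above 0 on replicates 1 and 3 and below it on replicates 2 and 4.

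DIA4, MSD1 and NAM2 were the mitochondrial genes below 0 on every replicate. DIA4 (YHR011W), for the seryl enzyme, read -0.56, -0.47 and -0.70, averaging -0.58 ± 0.11 with an interval from -1.02 to -0.14 (adjusted p = 0.168). MSD1 (YPL104W), for the aspartyl enzyme, read -0.86, -0.41 and -0.43, averaging -0.57 ± 0.25 (adjusted p = 0.197). The MSD1 value was lowest on replicate 1, that of DIA4 on replicates 2 and 4. NAM2 (YLR382C), for the leucyl enzyme that also takes part in mitochondrial intron splicing, read -0.07, -1.08 and -0.41 (mean -0.52 ± 0.52, adjusted p = 0.309), so its mean rested largely on replicate 3.

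SLM5 and ISM1 were the 2 genes of the 33 above 0 on every replicate. SLM5 (YCR024C), for the mitochondrial asparaginyl enzyme, read 0.34, 0.36 and 0.35, averaging 0.35 ± 0.0096, the smallest SD of the set. With limma's variance, which draws on all genes, its interval ran from -0.08 to 0.78 (adjusted p = 0.314). ISM1 (YPL040C), for the mitochondrial isoleucyl enzyme, read 0.13, 1.05 and 0.08, averaging 0.42 ± 0.54 (adjusted p = 0.410). The ISM1 mean, the highest of the 33, came mainly from replicate 3.

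For the remaining 8 mitochondrial genes the replicates differed in sign. MSR1 (YHR091C), for the arginyl enzyme, read -0.18, 0.12 and -0.81 (mean -0.29 ± 0.47, adjusted p = 0.539). MSK1 (YNL073W), for the lysyl enzyme, read 0.17, -0.09 and -0.59 (mean -0.17 ± 0.39, adjusted p = 0.705). MSM1 (YGR171C), for the methionyl enzyme, read 0.07, -0.02 and -0.49 (mean -0.15 ± 0.30, adjusted p = 0.728). In these genes replicates 2 and 4 gave the lowest value, as they did for the tyrosyl and glutamyl genes. MSY1 (YPL097W), for the tyrosyl enzyme, read 0.04, -0.02 and -0.25 (adjusted p = 0.848). MSE1 (YOL033W), for the glutamyl enzyme, read 0.18, 0.36 and -0.02 (adjusted p = 0.635). The threonyl and phenylalanyl genes had the opposite pattern, with replicates 2 and 4 above 0 and the others below. MST1 (YKL194C), for the threonyl enzyme, read -0.26, -0.48 and 0.31 (adjusted p = 0.759). MSF1 (YPR047W), for a phenylalanyl enzyme of one chain, read -0.58, -0.04 and 0.36 (adjusted p = 0.875). MSW1 (YDR268W), for the tryptophanyl enzyme, was below 0 on replicate 1 alone, at -0.41, 0.42 and 0.33 (adjusted p = 0.827).

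The 95% limma intervals of the 33 genes, not adjusted for the number of genes, reached from -1.44 (MES1) to 1.07 (ISM1). For 24 genes, 15 cytosolic and 9 mitochondrial, the interval stayed within 1 log2 unit of 0. A p above the threshold does not show that a gene was equal in GCN2c and WT cells. A change in a share of the cells and a change in all of them cannot be told apart in such RNA pools.

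Replicates 2 and 4 gave the lowest of the 3 values for 21 of 33 synthetase genes, 14 of 20 cytosolic and 7 of 13 mitochondrial, where 49.1% of all genes had their lowest value there. The difference of replicates 2 and 4 minus the mean of replicates 1 and 3 was -1.0 for GRS1, -0.78 for MSR1 and -0.74 for KRS1, the farthest below 0. It was 0.68 for MST1 and 0.67 for MSF1, the farthest above 0, and 0.34 for MES1, the farthest above 0 of the cytosolic genes. Dye orientation and hybridisation cannot be told apart, since only 1 independent hybridisation had GCN2c in Cy3.

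The cytosolic genes were ordered more alike between replicates than the mitochondrial ones. Over the 20 cytosolic genes Pearson's r was 0.803 between replicates 1 and 3, 0.535 between replicate 1 and the mean of replicates 2 and 4, and 0.697 between replicate 3 and that mean. Over the 13 mitochondrial genes the same correlations were 0.395, 0.0787 and 0.387, and over all 5997 genes with 3 values 0.485, 0.235 and 0.291. They are descriptions across genes of the same arrays, which are not independent.

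**Figure D3:**
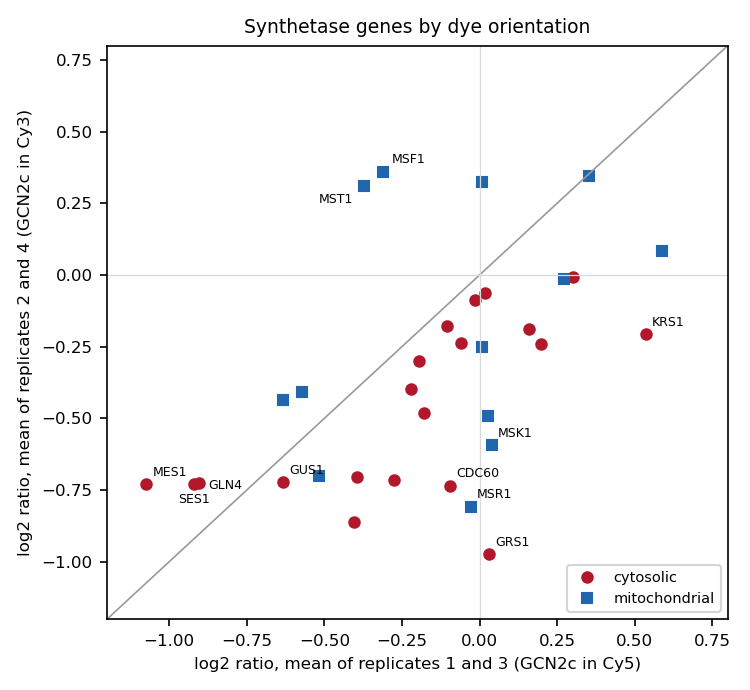
Log2 ratio of GCN2c over WT of each synthetase gene on replicates 2 and 4 (y axis, GCN2c in Cy3) against its mean on replicates 1 and 3 (x axis, GCN2c in Cy5). The diagonal marks equal values: GRS1 lies below it with a difference of -1.0, while MST1, at 0.68, and MES1, at 0.34, lie above it.

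For 13 amino acids the set holds a cytosolic and a separate mitochondrial enzyme, which gives 14 pairs because the cytosolic phenylalanyl enzyme has a gene for each subunit. In 8 of 14 pairs the cytosolic gene had the lower mean ratio. The difference of cytosolic minus mitochondrial ratio was below 0 on all 3 replicates in 6 pairs, above 0 on all 3 in 3 pairs and of mixed sign in the others. For GUS1 minus MSE1 it was -0.75, -1.06 and -0.71, averaging -0.84 ± 0.19. For MES1 minus MSM1 it was -1.28, -0.92 and -0.24, averaging -0.81 ± 0.53. The glutamyl pair thus differed evenly, while the methionyl pair differed least on replicates 2 and 4.

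Aspartyl and lysyl genes went the other way. DPS1 minus MSD1 was 0.79, 1.07 and 0.43, averaging 0.76 ± 0.32, and KRS1 minus MSK1 was 0.34, 0.65 and 0.39, averaging 0.46 ± 0.17. The KRS1 difference kept its sign on replicates 2 and 4, where KRS1 itself was below 0, because MSK1 was lower still at -0.59. Both genes were below 0 on every replicate in the seryl pair, SES1 and DIA4, and in the leucyl pair, CDC60 and NAM2. A two-sided exact sign-flip test of 1 pair cannot go below p = 0.25 with 3 replicates, and the pairs were not tested. YDR341C and MSR1 are related in sequence, and whether such spots shared signal was not tested.

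**Figure D4:**
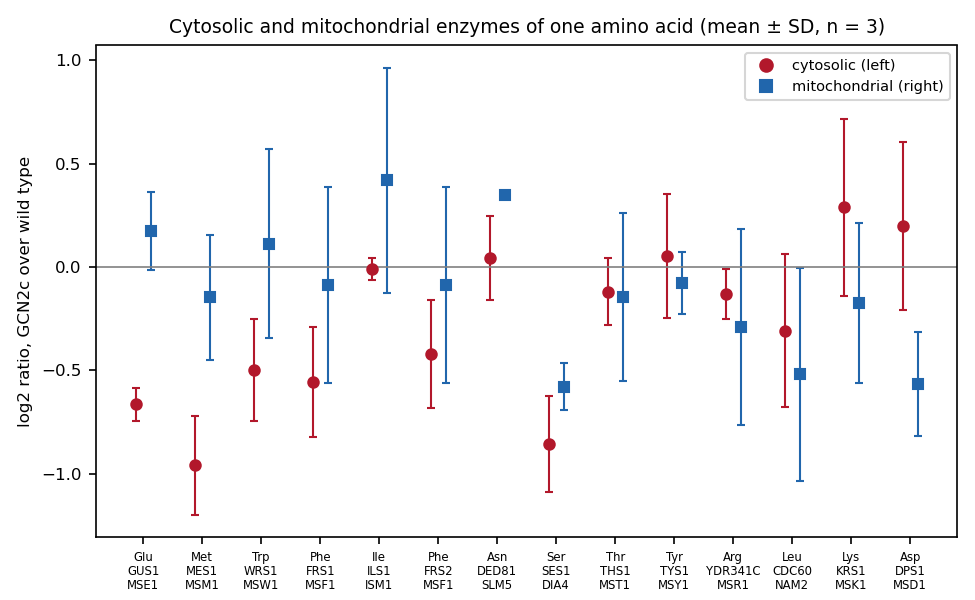
Mean log2 ratio of GCN2c over WT (y axis, bars are SD, n = 3) for the cytosolic (left) and mitochondrial (right) enzyme of each of 14 pairs (x axis), ordered by the difference. GUS1 minus MSE1, at -0.84, stands at the left end, and DPS1 minus MSD1, at 0.76, at the right end.

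The catalytic classes were compared by their medians. Across both compartments the medians averaged -0.16 ± 0.16 for 16 class I genes and -0.25 ± 0.16 for 17 class II genes. Among cytosolic genes they averaged -0.33 ± 0.33 for 9 class I genes and -0.23 ± 0.16 for 11 class II genes, and among mitochondrial genes -0.03 ± 0.19 for 7 class I genes and -0.24 ± 0.18 for 6 class II genes. Without replicates 2 and 4 the cytosolic averages were -0.15 for class I and -0.15 for class II, so the order of the classes there rested on that hybridisation, and the mitochondrial averages were 0.08 for class I and -0.33 for class II. Of the 8 genes at an unadjusted p under 0.05, 4 were of class I and 4 of class II.

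Genes related to the synthetases or working with them were counted in 3 short lists, in which few calls could be found at the 2.06% called among all genes. Of 3 further synthetase genes, CRS1 (cysteinyl), AIM10 (a mitochondrial prolyl enzyme) and GRS2 (a second glycyl gene), 0 passed, with means from -0.38 to 0.30. GRS2, a duplicate of GRS1 whose values are given after they were seen, read 0.33, 0.28 and 0.28 and lacked the low value of GRS1 on replicates 2 and 4, and shared signal between their spots was not tested. Of 5 partner genes 0 passed, with means from -0.60 to 0.23: ARC1, the formyltransferase gene FMT1, and HER2, PET112 and GTF1, whose products form the amidotransferase that makes mitochondrial glutaminyl-tRNA. Of 9 genes for tRNA end repair, export, recycling and delivery to the ribosome 0 passed, with means from -0.66 to 0.31.

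The median synthesis gene of an amino acid had a higher ratio than the cytosolic synthetase that loads it. Single synthesis genes were not all higher, such as HIS6 at -0.30 beside HTS1 at -0.23. Of 67 synthesis genes tested in 14 amino acid lists, 12 rose and 0 fell, where 1.73% of all genes rose and 0.326% fell. Those that rose were 6 for arginine, 2 each for lysine and methionine and 1 each for histidine and tryptophan. In each of the other lists, of 1 to 5 tested genes, 0 rose. With n = 3 this does not show that their genes were unchanged. Of the 67 genes, 43 were above 0 on all 3 replicates and 4 below 0 on all 3. Among all genes with 3 values these shares were 18.5% and 28.1%. At an unadjusted p under 0.05 in limma, 31 of the 67 were higher and 1 was lower. The medians of the 67 genes of all 14 lists averaged 0.47 ± 0.16. Many genes in these lists are known Gcn4 targets, and their rise was known when the lists were chosen. The lists cover 17 cytosolic synthetase genes. All 17 had a lower mean ratio than the median synthesis gene of their amino acid, and 15 were lower on each of the 3 replicates. The median mean ratio of all genes tested, -0.058, also lay below the median of every list, the lowest being -0.048 for serine. A gene at the median of all genes would thus be lower than each list too, so the 17 of 17 is not particular to synthetases. The synthetases not lower on each replicate were KRS1 and TYS1. For KRS1 the difference from the lysine list was 0.15, 0.04 and -0.76. For TYS1 the difference from the phenylalanine and tyrosine list was 0.13, -0.37 and -0.98.

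The gap was widest for arginine, where 6 of 9 synthesis genes rose and YDR341C stood at -0.13 beside their median of 2.46. WRS1 stood at -0.50 beside a median of 1.04 for 5 tryptophan genes, of which 1 rose. MES1 stood at -0.96 beside a median of 0.45 for 7 methionine genes, of which 2 rose. In serine synthesis 0 of 4 genes passed, and SES1, at -0.86, was below their median of -0.05 too. Across the 17 synthetases the mean ratio and the median of the synthesis list correlated at Pearson's r = 0.197 and Spearman's rho = 0.316. This describes genes of the same arrays, and ILS1 shares a list with VAS1, as FRS1 and FRS2 do with TYS1.

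**Figure D5:**
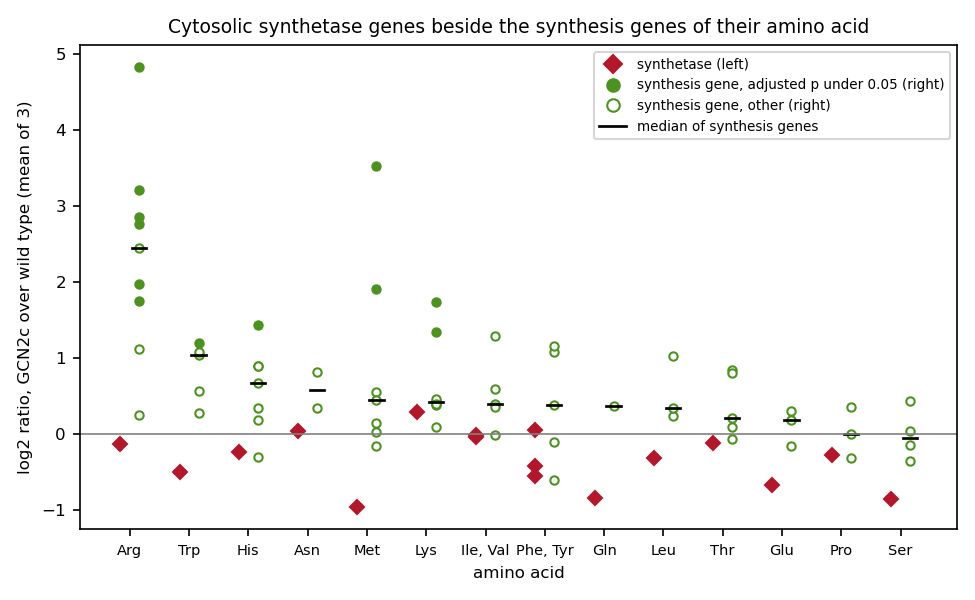
Mean log2 ratio of GCN2c over WT (y axis) of cytosolic synthetase genes (diamonds, left) and of the synthesis genes of the same amino acid (x axis; circles, right, filled where the limma adjusted p is under 0.05; bars are medians). Each of the 17 diamonds lies below the median of its list, and these medians run from 2.46 for arginine to -0.05 for serine.

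DED81 lies directly beside a gene that rose. In the R64 gene table its neighbours are ARG4, the argininosuccinate lyase gene, and YHR020W. ARG4 read 3.12, 3.19 and 3.34 and rose by 3.22 ± 0.11 (adjusted p = 0.00518), while DED81 read 0.15, 0.17 and -0.19 and YHR020W read -0.29, -0.07 and -0.48. DED81 was the 1 synthetase gene of 33 (3.03%) with a neighbour past the threshold, against 4.19% of the 5603 tested genes in that table. For this count a neighbour was the nearest tested gene of that table on either side, so other open reading frames could lie between.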

How the data were processed

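The deposited values are log2 ratios, 1 per open reading frame and array, made by the authors. Per the labels, the authors flagged and dropped defective spots and spots too dim in either channel, from cDNA copied out of 30 µg of RNA of 50 mL cultures. Log base and direction are likely but not stated, and centring and scanner are not given in the sources used here. Array medians were -0.03, -0.09, -0.05 and -0.09 for replicates 1 to 4. Arrays of opposite dye correlated above 0 (r = 0.235 and 0.291), so the ratios were read as already turned to one direction. No intensities were used, and the number of arrays limits the precision.

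Replicates 2 and 4 were averaged. Genes with a value on at least 3 arrays were fitted with limma 3.58.1 in R 4.3.3 (mean against 0, empirical Bayes, two-sided, Benjamini-Hochberg over 6130 genes, threshold 0.05), and the fit was tested on simulated data. "Rose" and "fell" mean past that threshold, and p-values measure only the spread between these samples. Alternatives were other uses of the replicates, a dye term, centring, scaling, filters, turned ratios and SAM. Names came from the R64 gene table (5662 of 6211 rows matched, all 33 synthetase genes among them). The files name no genome build, which is why positions are left out, and a planned promoter search was not made, as no sequences were used here. All 33 synthetase genes are named, and other genes where they passed the threshold, served as checks or examples, or are listed by role. The members and lists were chosen with earlier results of these data known.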

Additional observations from a re-analysis of the deposited data

How the results depend on the processing

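Over all genes, 126 passed the threshold. The count was 1062 with 4 arrays as 4 replicates, 590 with a dye term, 191 with only genes on all 4 arrays, 189 by SAM. It was 0 by limma when replicates 2 and 4 were turned, with 250 genes, 0 of them synthetases, below an unadjusted p of 0.05. Leaving out a replicate gave 74 (without replicate 3) to 148 (without replicate 1), and 353 without both replicates 2 and 4. Of the 33 synthetase genes 0 passed, but 8 did with 4 arrays as 4 replicates, 2 with the dye term and 1 without replicates 2 and 4, and 0 without any other replicate. The median ratio became 0.047 for cytosolic and 0.055 for mitochondrial genes with replicates 2 and 4 turned. The following members changed sign. With replicates 2 and 4 turned, CDC60 stood at 0.18, FRS1 at 0.018, FRS2 at 0.055, GRS1 at 0.34, ILS1 at 0.0325, THS1 at 0.0405, VAS1 at 0.019, YHR020W at 0.041, MSK1 at 0.22, MSM1 at 0.18, MSR1 at 0.25, MSW1 at -0.10 and MSY1 at 0.089. With 4 arrays as replicates and with the dye term alike, DED81 stood at -0.015, TYS1 at -0.0205 and MSF1 at 0.025. ILS1 stood at 0.0475 after centring and 0.049 after scaling, and VAS1 at 0.017 and 0.026. Without both replicates 2 and 4, GRS1 stood at 0.0295, ILS1 at 0.018, MSK1 at 0.039, MSM1 at 0.026 and MSY1 at 0.0085. Leaving out 1 replicate gave -0.0195 to 0.044 for DED81, -0.0365 to 0.33 for DPS1, -0.10 to 0.06 for TYS1, -0.15 to 0.044 for VAS1, -0.11 to 0.16 for MSF1, -0.145 to 0.0225 for MST1 and -0.042 to 0.374 for MSW1. The cause was not tested. No paired analysis was possible because there is 1 group of arrays, with no other group to share its replicate numbers, and the pairing of the strains within an array is already in each ratio.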

Other observations

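On replicates 2 and 4, 8 of the 33 synthetase genes (24.2%) had a log2 ratio of GCN2c over WT between -0.75 and -0.70, where 2.02% of the 5997 genes with 3 values did. They were CDC60, FRS2, GLN4, GUS1, MES1, SES1, WRS1 and DIA4. On replicates 1 and 3, 0 and 1 of the 33 lay in that range. The range was chosen after the values were seen, so the share is a description. SLM5 was picked for its even values, also after they were seen, so its rank is a description too. Only 6 of the 5997 genes (0.10%), itself included, had an SD over the 3 replicates no larger than its 0.0096. An SD of 3 values is imprecise.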
